A study of Mus musculus with 14 samples.

Results

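Cilengitide and SB273005, a pair of inhibitors of αV integrins, were compared in the ascending aorta of mice that were all given BAPN. Every gene with an FPKM (a read count divided by transcript length and by library depth) of 1 or more in at least 3 of the 7 libraries was compared, which left 12686 of the 32289 genes in the deposited table. No gene differed between the inhibitors at an adjusted p under 0.05 (edgeR's quasi-likelihood test, Benjamini-Hochberg adjustment), 1190 did at an unadjusted p under 0.05, and DESeq2 called 30. Some of those 30 passed the FPKM filter only through the SB273005 libraries, where they are high. The aortas given SB273005 had a lower mean level of Itgb3, the β subunit of the integrin αVβ3. They also had higher levels of most interferon response, endothelial, mesothelial and mitochondrially encoded genes. Several of these differences were carried by 3 or fewer of the 4 libraries.

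Integrins are receptors made of an α and a β subunit that tie a cell to its matrix. The αV subunit pairs with β1, β3, β5, β6 or β8 and binds the RGD motif of fibronectin, vitronectin, osteopontin and the latency peptide of TGF-β, and αVβ6 and αVβ8 free active TGF-β from that peptide. Cilengitide is a cyclic pentapeptide that carries the RGD motif and blocks αVβ3 and αVβ5. BAPN (β-aminopropionitrile) blocks lysyl oxidase, which cross-links elastin and collagen, and it gives young mice aneurysm and dissection of the aorta.

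The 7 libraries were 3 of BAPN+Cilengitide and 4 of BAPN+SB273005, and 3 of PBS and 4 of BAPN alone served for the estimate of the spread. All 14 libraries were made from ascending aortas of C57BL/6 animals, collected at week 6 of the model. The labels give no dose of either inhibitor and no age or sex of the animals, so a difference in dose and a difference between the compounds cannot be told apart. The labels do not say that each library is 1 animal, and the p-values then measure only the spread between these samples. BAPN and PBS values stand beside those of the inhibitors, and BAPN is part of both compared groups.

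Total counts were 49027885 to 59032292 in the 7 libraries. The share of mitochondrially encoded counts was 4.10% to 5.23% in the 3 Cilengitide libraries, and 5.68%, 17.9%, 10.2% and 5.32% in SB273005 replicates 1 to 4. The libraries also part by a few transcripts in a way that crosses the treatments. The MHC class II chain H2-Ea, which the C57BL/6 strain lacks through a deletion, had counts of 0 in the 3 PBS libraries and in SB273005 replicates 1, 2 and 3, which allows up to 3 counts in each, and counts of 83, 126 and 104 in the Cilengitide libraries and 116 in SB273005 replicate 4. SB273005 replicate 4 was thus the only library of its group on the side of the Cilengitide and BAPN libraries, and its difference from Cilengitide, fitted with the library set as a term, is given below as the value for SB273005 replicate 4 alone. What sets the libraries apart was not tested. Smooth muscle markers were abundant in all 7 libraries, with Acta2 at 548 FPKM or more.

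The fit placed most genes close to 0. The median log2 difference (SB273005 minus Cilengitide) over the 12686 genes was 0.02, and the middle range from the lower to the upper quartile ran from -0.13 to 0.19. The 95% interval of the difference lay within 2-fold either way for 10256 genes (80.8%) and within 1.5-fold for 6737 genes (53.1%), and it reached past 2-fold for 2430 genes. At an adjusted p under 0.05, 0 genes were called (0%), and the lowest adjusted p was 0.335. At an unadjusted p under 0.05 the count was 1190 (9.38%), of which 748 were higher with SB273005 (5.9% of the genes tested) and 442 lower (3.48%). That count was 636 (5.01%) when only the 7 libraries were fitted, 611 and 617 without Cilengitide replicates 2 and 3, and 1801 without SB273005 replicate 1. The groups did not overlap on the scaled counts for 802 genes (6.32%), 406 higher (3.2%) and 396 lower (3.12%). DESeq2, run as an alternative, called 30 genes, 21 higher and 9 lower. Among the higher ones were Myh7, Herc6 and Ccdc85a, which passed the filter only through SB273005 libraries, where they are high. Predicted gene models were also among them, such as Gm15289 at 7.63 and Gm16177 at 6.41. Without SB273005 replicate 4 edgeR called 15, 2 higher and 13 lower. Among them were Myh7 (5.42) on the higher side, and H2-Ea (-9.79) and Umod (-1.21) on the lower. For these genes SB273005 replicates 1 to 3 lay on the side of PBS, apart from the Cilengitide and BAPN libraries. Without SB273005 replicate 4, H2-Ea passed the filter only through the Cilengitide libraries, where it is high, and its counts in the SB273005 libraries were 0. Rescaling FPKM to TPM, which gives every library the same total, moved the median of all genes to -0.23, so the values that follow are read relative to the median of the fit.

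**Figure D1:**
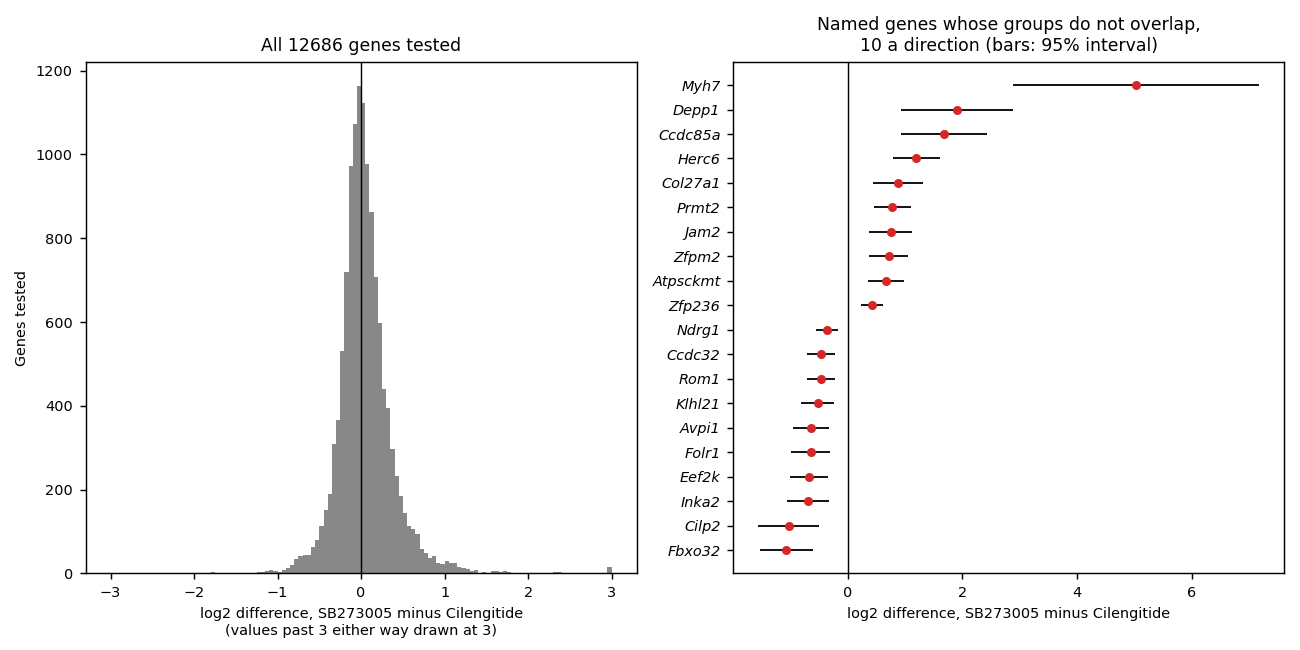
Left: number of genes (y axis) by log2 difference, SB273005 minus Cilengitide (x axis), for the 12686 genes tested; the peak is at 0. Right: log2 difference (points) and 95% interval (bars) of the 20 genes with the smallest p whose groups do not overlap, from Myh7 at 5.02 to Fbxo32 at -1.07; none passed the adjusted threshold.

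Levels of the αV subunit differed between the inhibitors by less than their error. Itgav was at 8.91, 8.0 and 9.32 FPKM in Cilengitide replicates 1 to 3, and at 9.82, 6.33, 7.94 and 10.1 in SB273005 replicates 1 to 4. The SB273005 libraries spread to both sides of the Cilengitide ones. The log2 difference was -0.02 ± 0.14 (SE), with a 95% interval of -0.31 to 0.28, which leaves out a change of 1.5-fold either way. That holds only under the fit's spread, which is shared over all 14 libraries, while the SB273005 libraries varied more than the Cilengitide ones. Its sign flipped when SB273005 replicate 2 (0.08), SB273005 replicate 3 (0.03) or Cilengitide replicate 3 (0.02) was left out. Fewer cells of a type and less RNA in each cell cannot be told apart in these whole-tissue samples, here or in the results that follow.

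Itgb3, the β3 subunit (chr11:104608000-104670476, mm10, plus strand), was lower with SB273005 and its groups did not overlap. The Cilengitide libraries were at 14.7, 14.4 and 14.3 FPKM and the SB273005 libraries at 13.1, 5.44, 9.08 and 10.9. The Cilengitide libraries lay close together, while the SB273005 libraries spread over more than a 2-fold range with replicate 2 lowest. The log2 difference was -0.58 ± 0.20 and did not pass the test (adjusted p = 0.488). BAPN alone was at 15.3 ± 1.26 FPKM (SD, n = 4) and PBS at 20.3 ± 2.60 (SD, n = 3). The difference was -0.40 without SB273005 replicate 2, -0.65 without SB273005 replicate 4 and -0.39 in SB273005 replicate 4 alone.

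The other partners gave overlapping groups. Itgb5, the β5 subunit, was at 351, 316 and 330 FPKM with Cilengitide and at 367, 194, 283 and 319 with SB273005, a log2 difference of -0.18 ± 0.19. Itgb1, which pairs with many α subunits, was at 325, 359 and 390 FPKM with Cilengitide and at 323, 122, 272 and 352 with SB273005, a log2 difference of -0.41 ± 0.26 (adjusted p = 0.634). Without SB273005 replicate 2 these were -0.05 and -0.19. For Itgb5 and Itgb1 alike, that replicate was the lowest of the 7, and it is the library with 17.9% mitochondrially encoded counts. Itgb6 and Itgb8 were below the filter, at 0.0986 to 0.250 and 0.459 to 1.56 FPKM over the 7 libraries. Of the 4 genes of this group that were tested, 0 were above 0, with a median of -0.30.

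**Figure D2:**
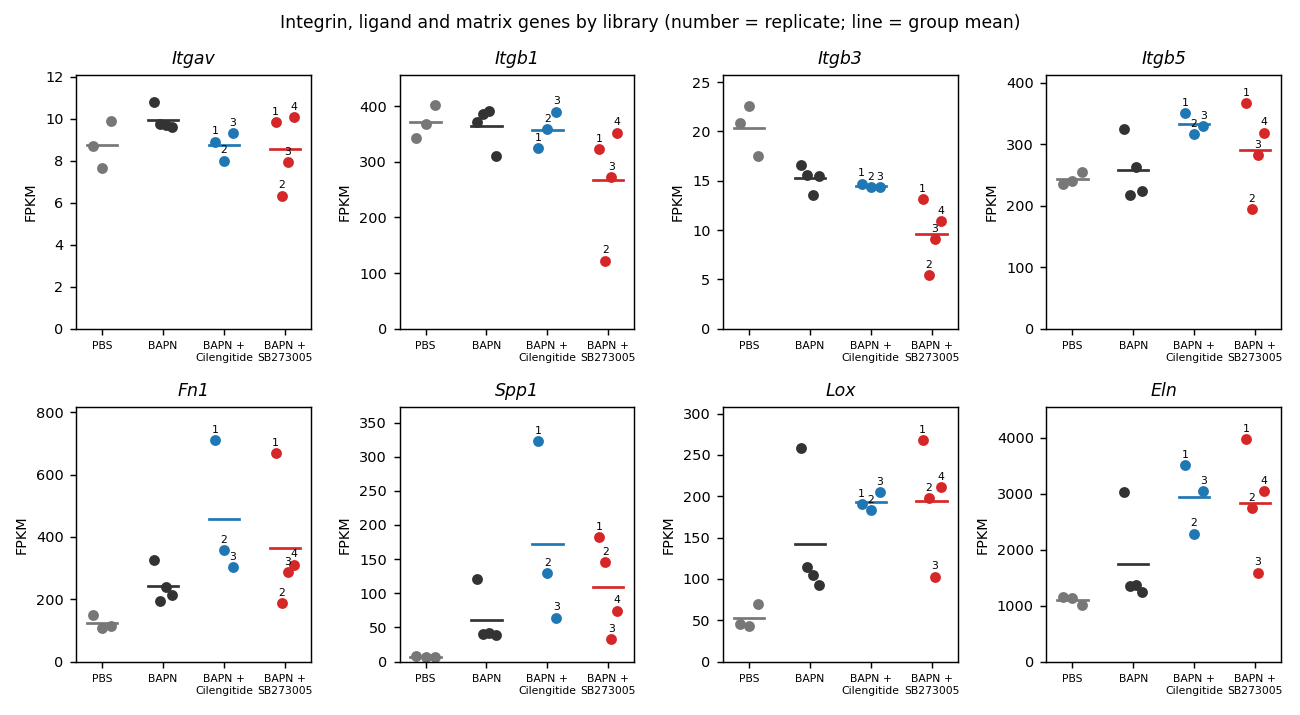
FPKM (y axis, from 0) of 8 integrin, ligand and matrix genes in each library of the 4 groups (x axis); points are libraries with their replicate number for the inhibitor groups, and lines are group means. Itgb3 in the SB273005 libraries (5.44 to 13.1) lies below all Cilengitide libraries, and SB273005 replicate 2 is lowest for the 4 integrin genes.

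Of the 16 other integrin genes tested, 2 were lower at an unadjusted p under 0.05 and 0 higher, beside 3.48% and 5.9% of all genes, and the median was -0.09. Itga3, a laminin-binding subunit, was at 30.1, 38.5 and 39.8 FPKM with Cilengitide and at 23.7, 11.3, 24.4 and 29.2 with SB273005. All 4 SB273005 libraries were below all 3 of Cilengitide, and the log2 difference was -0.70 ± 0.23 (adjusted p = 0.488). Itga9, which pairs with β1 and binds tenascin and osteopontin, was at 41.8, 51.8 and 64.5 FPKM with Cilengitide and at 38.3, 9.42, 35.0 and 41.6 with SB273005, a log2 difference of -0.76 ± 0.34 (adjusted p = 0.526). Itga5, the fibronectin receptor's α subunit, was at 115, 162 and 151 FPKM against 86.5, 56.1, 115 and 160, with overlapping groups and a difference of -0.44 ± 0.30. Itgb4, the partner of α6 in hemidesmosomes, had a difference of 0.42 ± 0.23 at 1.15 to 2.19 FPKM. SB273005 replicate 4 alone gave -0.29 for Itga3, -0.32 for Itga9, 0.18 for Itga5 and 0.08 for Itgb4.

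RGD ligands and matricellular proteins, the molecules these receptors bind, had 9 of 23 genes above 0, a median of -0.15, and 0 with an unadjusted p under 0.05. Spp1 (osteopontin) was at 323, 129 and 64.4 FPKM with Cilengitide and at 183, 145, 33.0 and 74.7 with SB273005. Both groups ranged over more than 4-fold, BAPN alone was at 60.1 ± 40.5 (SD, n = 4) and PBS at 7.14 ± 1.40 (SD, n = 3). The log2 difference of Spp1 was -0.62 ± 0.60, and it was 0.18 without Cilengitide replicate 1. Fn1 (fibronectin) was at 712, 357 and 304 FPKM with Cilengitide and at 668, 188, 287 and 311 with SB273005, a difference of -0.32 ± 0.39 that became 0.14 without Cilengitide replicate 1. In each inhibitor group replicate 1 was the highest library for Fn1 and Spp1. Vtn (vitronectin) was below the filter, at 0.441 to 1.44 FPKM.

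The members of that list with the smallest p were Mfge8, Tnc, Thbs4 and Npnt. Mfge8, an αVβ3 and αVβ5 ligand that bridges to apoptotic cells, was at 249, 261 and 228 FPKM with Cilengitide and at 184, 81.9, 177 and 238 with SB273005, a log2 difference of -0.52 ± 0.25 (adjusted p = 0.539). Tnc (tenascin C) was at 51.2, 28.2 and 24.4 FPKM against 28.6, 14, 24.2 and 26.2, a difference of -0.56 ± 0.28 that was -0.18 without Cilengitide replicate 1. Npnt (nephronectin), an α8β1 ligand, was at 185, 217 and 272 FPKM against 157, 26.9, 159 and 209, a difference of -0.70 ± 0.44. Thbs4, a thrombospondin, was at 1.03, 1.43 and 1.87 FPKM against 7.90, 1.96, 2.44 and 1.07; its difference of 1.22 ± 0.72 was 0.35 without SB273005 replicate 1 and -0.41 in SB273005 replicate 4 alone.

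Lox and Eln, the target of BAPN and its elastic substrate, differed between the inhibitors by less than their error. Lox was at 191, 183 and 205 FPKM with Cilengitide and at 268, 198, 103 and 211 with SB273005, so the SB273005 libraries surrounded the Cilengitide ones. Its log2 difference was 0.04 ± 0.36, with a 95% interval of -0.75 to 0.82, and its sign flipped on the log2(FPKM + 1) scale (-0.07). Eln was at 3513, 2288 and 3043 FPKM with Cilengitide and at 3981, 2743, 1590 and 3040 with SB273005, a difference of -0.03 ± 0.38. The sign of Eln also flipped with single libraries left out (0.10 without Cilengitide replicate 1, 0.18 without SB273005 replicate 3). The elastic fibre and cross-linking list had 11 of 22 genes above 0 and a median of -0.01. Collagens had 8 of 22 above 0 and a median of -0.09, and matrix proteases with their inhibitors 12 of 26 and -0.05. Of these 3 lists, 1 gene had an unadjusted p under 0.05, beside 9.38% of all genes. That gene, Loxl2, a relative of lysyl oxidase, was at 23.2, 24.6 and 19.4 FPKM with Cilengitide and at 18.2, 12.5, 12.4 and 16.5 with SB273005. All 4 SB273005 libraries were below all 3 of Cilengitide, and the log2 difference was -0.57 ± 0.17 (adjusted p = 0.488), beside 19.3 ± 3.11 FPKM in BAPN (SD, n = 4).

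For TGF-β, which αV integrins can activate, the groups overlapped. Tgfb1 was at 21.4, 16.2 and 12.8 FPKM with Cilengitide and at 20.9, 14.5, 13.5 and 12.9 with SB273005, a log2 difference of -0.10 ± 0.20. Tgfb2 was at 14.2, 15 and 19.6 FPKM against 13.7, 6.07, 14.8 and 21.0, a difference of -0.22 ± 0.29. The sign flipped without Cilengitide replicate 1 for Tgfb1 (0.09) and without SB273005 replicate 2 for Tgfb2 (0.01). The list of TGF-β ligands, receptors and targets had 11 of 22 genes above 0 and a median of 0.00, with 1 gene higher and 0 lower at an unadjusted p under 0.05, beside 5.9% and 3.48% of all genes. Its 95% intervals lay within 2-fold for 19 of the 22 genes.

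Smooth muscle contractile genes, which make the actomyosin apparatus of the media, were lower in SB273005 replicates 1 and 2 and near the Cilengitide level in replicates 3 and 4. Of the 22 genes, 21 were below 0 with a median of -0.48, and 0 had an unadjusted p under 0.05. The list's median against the Cilengitide mean was -0.63, -2.0, -0.08 and 0.06 in SB273005 replicates 1 to 4. Acta2 (smooth muscle actin) was at 3774, 4204 and 4658 FPKM with Cilengitide and at 2724, 548, 3091 and 3994 with SB273005, a log2 difference of -0.70 ± 0.46 (adjusted p = 0.641). Myh11 (smooth muscle myosin heavy chain) was at 337, 389 and 510 FPKM against 259, 70.2, 402 and 412, a difference of -0.53 ± 0.42. The groups overlapped for both, and replicate 2 stood more than 3-fold below every other library.

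The 4 members with the smallest p were Lmod1, which nucleates actin filaments (-0.60 ± 0.29), Synpo2, an actin-bundling protein (-0.73 ± 0.37), Mylk, the myosin light chain kinase (-0.64 ± 0.36), and Ppp1r12b, a subunit of myosin phosphatase (-0.57 ± 0.33). Their values in SB273005 replicate 2 were 28.6, 4.83, 11 and 7.96 FPKM, against at least 98.9, 16.0, 47.8 and 29.0 in the Cilengitide libraries. Without replicate 2 the list's median was -0.20, and in SB273005 replicate 4 alone it was 0.04 with 13 of 22 genes above 0. The share of mitochondrially encoded counts in replicate 2 (17.9%) moved with these values, and its part in them was not tested.

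The core genes of focal adhesions, the plaques through which integrins hold actin, moved with the same library. Of 22 genes 8 were above 0, the median was -0.21, and 1 gene was lower at an unadjusted p under 0.05, beside 3.48% of all genes. That gene, Tns1 (tensin 1, which links β integrin tails to actin), was at 113, 142 and 152 FPKM with Cilengitide and at 94.3, 40.2, 113 and 103 with SB273005. SB273005 replicate 3 met the lowest Cilengitide library, and the groups did not overlap on the scaled counts. The log2 difference was -0.63 ± 0.27 (adjusted p = 0.523). The next by p were Src, a kinase that integrins activate (-0.35 ± 0.16), Ilk, the integrin-linked kinase scaffold (-0.34 ± 0.19), and Tns2, another tensin (-0.27 ± 0.15). The list's median was -0.69 in SB273005 replicate 2, and -0.03, -0.11 and -0.02 in replicates 1, 3 and 4.

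Interferon response genes, which cells switch on when interferon binds its receptor, were higher in 3 of the 4 SB273005 libraries. Of 23 genes tested 22 were above 0, with a median of 0.86 beside 0.02 over all genes. At an unadjusted p under 0.05, 12 were higher and 0 lower, beside 5.9% and 3.48% of all genes, and the groups did not overlap for 4, beside 3.2%. Both counts include Oas2, which passed the filter through the SB273005 libraries, where it is high. The list's median against the Cilengitide mean was 1.39, 0.79 and 0.56 in SB273005 replicates 1, 2 and 3, and 0.00 in replicate 4. With the replicate number as a block the count with an unadjusted p under 0.05 was 18, beside 10.5% of all genes in either direction.

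Many interferon response genes carry a shared control element, and the promoters of 4 that hold a match are shown before their values. The interferon-stimulated response element has a core of GAAA, 2 bases of any kind and GAAA again (on the other strand TTTC, 2 bases and TTTC), and both strands were searched. It occurs in the 250 bases before the start of 978 of 32851 promoters (2.98%), of 285 of the 9233 tested genes that have a promoter in the table (3.09%), and of 11 of the 17 interferon response genes tested that have one (64.7%). The sequences are RefSeq's on GRCm38.p6, 5′ to 3′ on the strand of the gene, and the capitals mark the matches. Gbp3 is shown from chr3:142559794-142560043 (plus strand), Stat2 from chr10:128270248-128270497 (plus strand), Ifit1 from chr19:34640639-34640888 (plus strand) and Isg15 from chr4:156200819-156201068 (minus strand).
Gbp3: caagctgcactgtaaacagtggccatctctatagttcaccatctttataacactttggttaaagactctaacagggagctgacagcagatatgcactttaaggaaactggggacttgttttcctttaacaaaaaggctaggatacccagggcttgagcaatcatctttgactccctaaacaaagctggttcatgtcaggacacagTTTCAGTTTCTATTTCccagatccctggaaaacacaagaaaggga
Stat2: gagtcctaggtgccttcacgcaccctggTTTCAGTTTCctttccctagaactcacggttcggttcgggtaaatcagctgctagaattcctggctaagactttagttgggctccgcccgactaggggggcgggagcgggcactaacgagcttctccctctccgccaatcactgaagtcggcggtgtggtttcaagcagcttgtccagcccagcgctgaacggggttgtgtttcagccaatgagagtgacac
Ifit1: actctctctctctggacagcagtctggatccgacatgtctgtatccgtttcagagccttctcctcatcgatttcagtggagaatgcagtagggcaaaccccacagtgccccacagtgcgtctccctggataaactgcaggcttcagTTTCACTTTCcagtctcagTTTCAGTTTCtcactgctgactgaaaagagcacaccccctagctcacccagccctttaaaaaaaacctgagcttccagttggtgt
Isg15: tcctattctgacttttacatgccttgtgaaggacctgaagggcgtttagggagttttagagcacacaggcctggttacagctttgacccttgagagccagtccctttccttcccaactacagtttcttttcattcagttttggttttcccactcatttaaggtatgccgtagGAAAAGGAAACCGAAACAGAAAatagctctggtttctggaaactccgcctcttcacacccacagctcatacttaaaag
Gbp3 had 2 matches that share bases, the nearer one starting 39 bases before the start of the gene, and a second promoter of Gbp3 had none. Oasl2, described next, had no match in its window. Stat2 had 1 match, 222 bases before the start, Ifit1 had 2, with the nearer at 85 bases, and Isg15 had 3 that share bases, with the nearest at 66. A match is a description of these letters and not a measured binding site.

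Gbp3, an interferon-induced GTPase, was at 2.49, 2.17 and 2.05 FPKM with Cilengitide and at 5.79, 4.76, 3.57 and 2.84 with SB273005. All 4 SB273005 libraries were above all 3 of Cilengitide, and the log2 difference was 0.94 ± 0.23 (adjusted p = 0.488), beside 2.66 ± 0.444 FPKM in BAPN (SD, n = 4). Stat2, a signal carrier of the interferon receptor, was at 4.68, 4.31 and 3.13 FPKM against 6.31, 8.92, 5.87 and 4.64; the difference was 0.70 ± 0.22. Oas2, a sensor of double-stranded RNA, was at 0.862, 1.04 and 0.598 FPKM against 1.92, 1.33, 1.62 and 1.16, a difference of 0.86 ± 0.27 without overlap. It was under 1 FPKM in Cilengitide replicates 1 and 3 and passed the filter through the SB273005 libraries, where it is high, so its values are a description. Oasl2, a relative of Oas2, was at 2.44, 1.92 and 1.42 FPKM against 7.37, 3.76, 3.07 and 2.21, a difference of 1.11 ± 0.35. In each of these 4 genes SB273005 replicate 4 was the lowest of its group, and the difference in that library alone was 0.36, 0.22, 0.50 and 0.22.

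The largest differences of the list rested more on SB273005 replicate 1. Ifit1, which binds viral RNA caps, was at 1.56, 1.22 and 0.919 FPKM with Cilengitide and at 8.34, 2.76, 1.87 and 1.47 with SB273005, a log2 difference of 1.56 ± 0.54. Isg15, a ubiquitin-like protein, was at 5.73, 3.07 and 2.73 FPKM against 24.6, 6.98, 6.16 and 4.62, a difference of 1.47 ± 0.52. Both were chosen after their values were seen. Replicate 1 was more than 3-fold above the other 3 SB273005 libraries for Ifit1 and Isg15, and replicate 4 lay within the Cilengitide range. Ifit2 was the single gene of the list below 0 (-0.10 ± 0.27). Without SB273005 replicate 1 the median of the list was 0.47 and 5 genes had an unadjusted p under 0.05, beside 14.4% of all genes in either direction. Without SB273005 replicate 4 the median was 1.09 and the count 20, beside 13.4%. That count was 7 without Cilengitide replicate 2 and 5 without Cilengitide replicate 3, beside 4.86% and 4.91%. In SB273005 replicate 4 alone the median was -0.04 with 9 of 23 genes above 0.

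**Figure D3:**
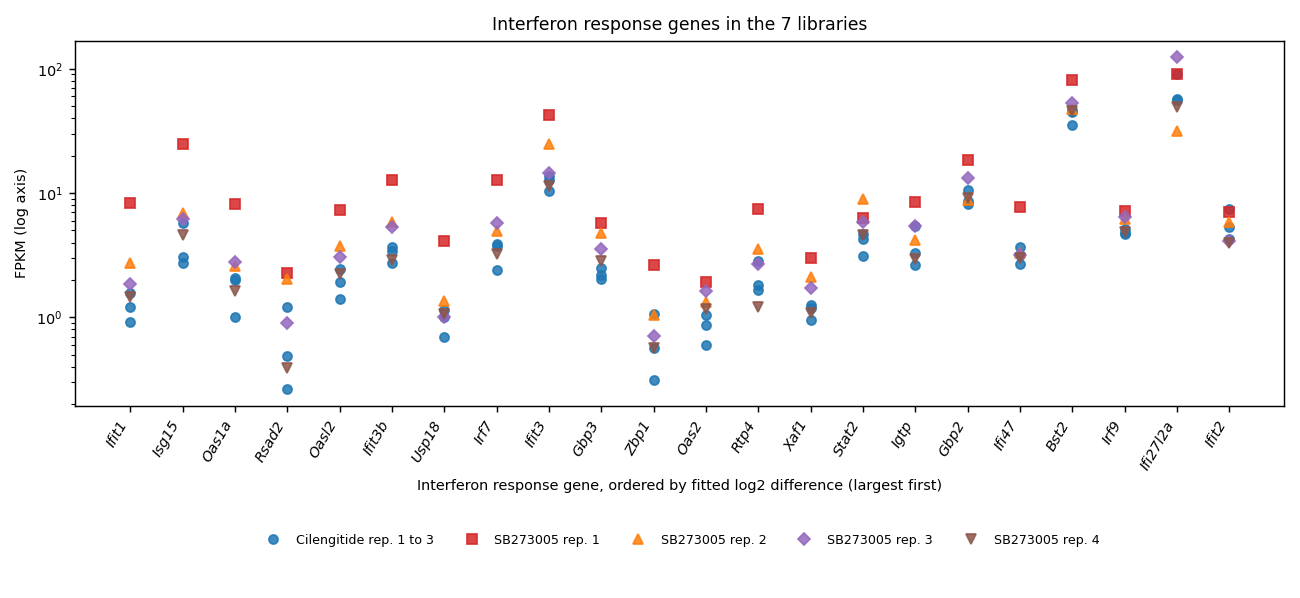
FPKM (y axis, log scale) of 22 of the interferon response genes tested (x axis, ordered by fitted log2 difference) in the 7 libraries; circles are Cilengitide, other marks the SB273005 replicates. SB273005 replicate 1 is highest for most genes (Isg15 at 24.6 against 2.73 to 5.73 with Cilengitide), and replicate 4 lies near the Cilengitide libraries for most genes.

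Macrophage and monocyte genes, like interferon response genes, had their highest medians of the SB273005 group in replicates 1 and 2. The order of replicates 3 and 4 was the other way round. Of 21 tested, 11 were above 0 with a median of 0.01, and their median against the Cilengitide mean was 0.50, 0.30, -0.47 and -0.33 in SB273005 replicates 1 to 4. Their summed level was 641 to 1288 FPKM with Cilengitide and 662 to 1356 with SB273005. Only 2 of 17 T and NK cell genes passed the filter, with a summed level of 23.1 to 40.1 FPKM against 23.8 to 42.4. The part of either cell type in the interferon values was not tested.

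Endothelial genes, which mark the inner lining of the aorta and its small vessels, were all above 0. The 18 genes had a median of 0.44, and 5 were higher at an unadjusted p under 0.05, beside 5.9% of all genes, with 0 whose groups did not overlap, beside 3.2%. Kdr (VEGF receptor) was at 3.00, 1.61 and 1.49 FPKM with Cilengitide and at 5.09, 6.25, 6.39 and 2.18 with SB273005, a log2 difference of 1.31 ± 0.47 (adjusted p = 0.488). Sox17, an arterial transcription factor, was at 2.65, 1.04 and 1.15 FPKM against 2.07, 5.86, 4.02 and 1.82, a difference of 1.13 ± 0.44. Egfl7, a secreted endothelial protein, had a difference of 0.97 ± 0.36 and Tie1, an angiopoietin coreceptor, of 0.74 ± 0.32. In these genes Cilengitide replicate 1 was the highest of its group and reached into the SB273005 range. Without Cilengitide replicate 1, 13 of the 18 genes had an unadjusted p under 0.05, beside 9.95% of all genes in either direction. Without Cilengitide replicate 2 or replicate 3 the count was 0, beside 4.86% and 4.91%. SB273005 replicate 4 alone gave a median of 0.11. The summed level of the list was 169 to 279 FPKM with Cilengitide and 208 to 321 with SB273005.

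Notch pathway genes, through which arterial endothelium and smooth muscle signal to each other, followed the endothelial ones. Of 15 tested 11 were above 0, with a median of 0.35, and 3 were higher and 0 lower at an unadjusted p under 0.05, beside 5.9% and 3.48% of all genes. Notch1, the main endothelial receptor, was at 2.47, 1.49 and 1.55 FPKM with Cilengitide and at 3.25, 3.33, 3.61 and 2.57 with SB273005, without overlap, and its log2 difference was 0.82 ± 0.29 (adjusted p = 0.488). The ligand Dll4 of arterial endothelium was at 3.53, 0.800 and 1.45 FPKM against 3.16, 5.70, 5.52 and 1.46, a difference of 1.07 ± 0.54. The ligands Jag2 and Dll1 had differences of 0.68 ± 0.27 and 0.88 ± 0.39. In SB273005 replicate 4 alone Dll4 was at -0.37 and Jag2 at -0.05, and the list's median was -0.11. The count of 3 was 7 without Cilengitide replicate 1, and 0 and 1 without replicates 2 and 3 of that group. The shares of all genes, in either direction, were 9.95%, 4.86% and 4.91% in those fits.

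Mesothelial and epithelial genes, which mark the membrane that covers the heart and the root of the great vessels, had the largest median of the 15 lists drawn by library below. Of 15 genes 8 passed the filter, 7 were above 0, and the median was 1.29. At an unadjusted p under 0.05, 4 were higher, beside 5.9% of all genes, and the groups did not overlap on the scaled counts for 5, beside 3.2%. Msln (mesothelin) was at 1.17, 3.19 and 1.51 FPKM with Cilengitide and at 19.1, 8.89, 8.90 and 3.39 with SB273005, a log2 difference of 2.36 ± 0.75 (adjusted p = 0.488). Gpm6a was at 1.95, 3.18 and 2.75 FPKM against 7.63, 6.58, 7.14 and 4.42, a difference of 1.31 ± 0.39. Lrrn4 had a difference of 1.86 ± 0.62 and Krt19, a keratin, of 1.27 ± 0.58. Lrrn4 passed the filter only through SB273005, where it is high, and both counts above and the median include it. Msln was at 0.775 to 8.23 FPKM in the 4 BAPN libraries, so BAPN alone spanned the Cilengitide range and reached into that of SB273005. The summed level of the list was 16.9 to 31.5 FPKM with Cilengitide and 30.0 to 71.6 with SB273005, and a difference in the tissue taken was not tested. SB273005 replicate 4 alone had a median of 0.43.

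Cardiac and kidney transcripts were present at low and at high levels in all 7 libraries and split the SB273005 group. Myh7 (cardiac β-myosin heavy chain) was at 0.251, 0.0454 and 0.144 FPKM with Cilengitide, and at 5.96, 5.31, 7.54 and 0.261 with SB273005, a log2 difference of 5.02 ± 1.00 (adjusted p = 0.488). PBS was at 4.80 ± 0.286 FPKM (SD, n = 3) and BAPN at 0.121 ± 0.0981 (SD, n = 4). The difference was 5.42 without SB273005 replicate 4, and replicate 4 alone gave 0.84. Myh7 passed the filter only through SB273005 replicates 1 to 3, so its values are a description. Myh6 (cardiac α-myosin heavy chain) followed it with 10.6, 1.37 and 4.88 FPKM against 32.2, 24.2, 47.0 and 7.41, and Tnni3 (cardiac troponin I) had a difference of 1.62 ± 0.58. The list as a whole did not move one way: of 13 genes 8 were above 0 with a median of 0.16 (-0.07 after rescaling to TPM), and Ryr2 was lower (-0.88 ± 0.34). Myl7 and Actc1, chosen after their values were seen, were at -0.34 ± 0.80 and -0.02 ± 0.68.

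Umod (uromodulin of the kidney's thick ascending limb) was at 24.6, 23.6 and 25.3 FPKM with Cilengitide and at 10.8, 8.94, 11.6 and 23.0 with SB273005, a log2 difference of -0.83 ± 0.24 that was -1.21 without SB273005 replicate 4. Slc12a1, the salt transporter of the same segment, had a difference of -0.56 ± 0.17 and Aqp2, the water channel of the collecting duct, of -1.06 ± 0.34. Miox, an enzyme of the proximal tubule, went the other way: it was at 10.9, 11.3 and 11 FPKM against 17.7, 15, 20.0 and 10.7, a difference of 0.53 ± 0.17. For Umod and Miox the first 3 SB273005 libraries stood on the side of PBS (8.49 ± 0.877 and 15.3 ± 1.20 FPKM, SD, n = 3) and replicate 4 stood near Cilengitide. These genes are not markers of the aorta, and their split followed that of H2-Ea. The kidney list as a whole did not move one way: of 12 genes tested 4 were above 0, with a median of -0.26. At an unadjusted p under 0.05, 2 were higher and 4 lower, beside 5.9% and 3.48% of all genes. Its summed level was 277 to 292 FPKM with Cilengitide and 268 to 386 with SB273005.

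All 13 mitochondrially encoded genes, which make subunits of the respiratory chain, were above 0, each at an unadjusted p under 0.05, beside 5.9% of all genes, with a median of 1.14 and 7 without overlap, beside 3.2%. mt-Atp8 was at 3114, 2108 and 2121 FPKM with Cilengitide and at 3518, 13003, 6534 and 3136 with SB273005, a log2 difference of 1.46 ± 0.46 (adjusted p = 0.488). mt-Atp6 and mt-Co3, subunits of ATP synthase and cytochrome oxidase, had differences of 1.40 ± 0.47 and 1.20 ± 0.42, and mt-Co2 of 1.15 ± 0.41. The excess was largest in SB273005 replicates 2 and 3, where the list's median stood 2.07 and 1.14 above the Cilengitide mean, against 0.33 and 0.25 in replicates 1 and 4. The summed level was 35462 to 45954 FPKM with Cilengitide, beside 37746 to 74693 in BAPN and 56390 to 80994 in PBS. SB273005 replicates 1 and 4, at 50009 and 46104, lay within the BAPN range, and replicates 2 and 3, at 159834 and 89178, above it. Without SB273005 replicate 2 the median was 0.62 and 4 genes had an unadjusted p under 0.05, beside 7.36% of all genes in either direction. Without Cilengitide replicate 2 or replicate 3 the count was 5, beside 4.86% and 4.91%. The 26 nuclear genes of oxidative phosphorylation lay mostly on the other side: 22 were below 0, the median was -0.16, and all 26 intervals lay within 2-fold. At an unadjusted p under 0.05, 2 were lower and 0 higher, beside 3.48% and 5.9% of all genes.

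Heat shock genes were high in SB273005 replicates 3 and 4 and not in replicates 1 and 2. Hspa1b, an inducible HSP70 chaperone, was at 17.8, 24.5 and 27.3 FPKM with Cilengitide and at 22.1, 19.2, 165 and 613 with SB273005, a log2 difference of 3.15 ± 1.02 (adjusted p = 0.488) that was 1.55 without SB273005 replicate 4. Hspa1a, its near-identical neighbour whose reads may be shared with it, was at 16.5, 21.9 and 24.5 FPKM against 17.6, 16.9, 113 and 420. Dnajb1, an HSP40 cochaperone, was at 12.1, 12.6 and 12.9 FPKM against 14.2, 11.9, 20.6 and 34.7, a difference of 0.71 ± 0.29. Klf2, an early gene of endothelium that shear stress induces, was at 41.4, 47.8 and 38.1 FPKM against 48.4, 76.4, 76.2 and 61.9, a difference of 0.65 ± 0.18. The list of immediate early and heat shock genes had 23 of 27 above 0, a median of 0.34 and 4 higher at an unadjusted p under 0.05, beside 5.9% of all genes. The median was 0.05 without SB273005 replicate 4 and 0.56 in that replicate alone.

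The 12 genes called for SB273005 replicate 4 alone against Cilengitide, 8 higher and 4 lower, were chosen here after their values were seen. Cacybp and Dnaja1 stood out among the higher ones, the latter an HSP40 cochaperone, at no more than 14.3 and 10.7 FPKM with Cilengitide and at 51.8 and 44.2 in SB273005 replicate 4. Tead1, the DNA-binding partner of YAP, led the lower ones: it was at 5.51, 5.57 and 5.01 FPKM with Cilengitide, at 6.02, 3.51 and 5.89 in SB273005 replicates 1 to 3 and at 0.375 in replicate 4. A call for this replicate assumes that 1 library varies like those of the other groups.

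Clock genes, whose RNA cycles over the day, had 10 of 17 above 0 and a median of 0.08 (-0.19 after rescaling to TPM), with 3 higher and 3 lower at an unadjusted p under 0.05, beside 5.9% and 3.48% of all genes. Nr1d1 (REV-ERBα), the repressor of Bmal1, was at 60.2, 95.3 and 113 FPKM with Cilengitide and at 66.4, 32.2, 30.6 and 21.4 with SB273005, a log2 difference of -1.24 ± 0.40 (adjusted p = 0.488). Nfil3, whose own repressor is REV-ERBα, was at 6.08, 6.27 and 5.05 FPKM against 5.57, 5.71, 22.7 and 25.6, a difference of 1.36 ± 0.51. Per2, a core repressor of the clock, was at 14.8, 10.9 and 11.1 FPKM against 10.7, 15.4, 37.4 and 27.2, a difference of 0.90 ± 0.40, and Bhlhe41, another repressor, had -0.49 ± 0.19. Nfil3 and Per2 were high in SB273005 replicates 3 and 4, the libraries with the highest Hspa1b. The labels do not give the hour of tissue collection, and its part in these values was not tested.

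Oxidative stress and metal-binding genes had 17 of 21 below 0 and a median of -0.16. At an unadjusted p under 0.05, 5 were lower and 0 higher, beside 3.48% and 5.9% of all genes. Without Cilengitide replicate 2, 1 was lower, beside 4.86% of all genes in either direction. Mt2 (metallothionein 2, which binds zinc and copper) was at 130, 1029 and 336 FPKM with Cilengitide and at 188, 63.3, 120 and 144 with SB273005. Its log2 difference of -1.96 ± 0.59 (adjusted p = 0.488) was -0.84 without Cilengitide replicate 2, and that replicate was 3-fold above the next library. Mt1 was at 119, 589 and 284 FPKM against 130, 75.5, 144 and 169, a difference of -1.36 ± 0.44 that was -0.62 without Cilengitide replicate 2. Gpx3, a secreted glutathione peroxidase, was at 566, 536 and 513 FPKM against 361, 301, 373 and 490, without overlap, and the difference was -0.48 ± 0.17; kidney is its main source in the body, and SB273005 replicate 4 alone gave -0.12. Txnrd1 (thioredoxin reductase) had a difference of -0.22 ± 0.10.

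The genes that follow were named for a small p and for groups that do not overlap. Herc6, an E3 ligase for the interferon-induced protein ISG15 (chr6:57581000-57664632, mm10, plus strand), was at 0.486, 0.485 and 0.532 FPKM with Cilengitide and at 1.08, 1.24, 1.01 and 1.20 with SB273005. All 4 were about 2-fold above all 3, and the log2 difference was 1.19 ± 0.19 with a 95% interval of 0.79 to 1.60. Its adjusted p was 0.335 by edgeR, the lowest of all genes, and 3.1e-06 by DESeq2, and BAPN alone was at 0.710 ± 0.153 FPKM (SD, n = 4). The difference was 1.12 to 1.26 with any 1 library left out and 1.27 in SB273005 replicate 4 alone. The window before the start of Herc6 held no match to the element shown above. Herc6 was under 1 FPKM in every Cilengitide library and passed the filter only through the SB273005 libraries, where it is high, so its p-values describe a gene that the filter kept for being high there.

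Prmt2, an arginine methyltransferase, was at 7.95, 5.51 and 5.70 FPKM with Cilengitide and at 9.19, 9.32, 12.4 and 12.4 with SB273005, a log2 difference of 0.78 ± 0.15 that was 0.97 in SB273005 replicate 4 alone. Depp1, a FOXO target, was at 4.44, 5.91 and 5.73 FPKM against 13.6, 22.5, 32.4 and 11.4. Its difference was 1.91 ± 0.45, and BAPN alone was at 3.76 ± 2.14 FPKM (SD, n = 4). Jam2, a junction protein of endothelium, was at 8.28, 5.46 and 6.14 FPKM against 9.07, 11.6, 12.8 and 10.5, a difference of 0.75 ± 0.17. Col27a1, a cartilage collagen, was at 2.70, 1.67 and 1.63 FPKM against 3.16, 4.23, 3.88 and 3.14, a difference of 0.87 ± 0.20. Zfpm2 (FOG2, a GATA cofactor of heart and vessels) had 0.71 ± 0.15, Ccdc85a 1.68 ± 0.35, Atpsckmt 0.67 ± 0.15 and Zfp236 0.42 ± 0.09. Each of these genes had an adjusted p of 0.488 by edgeR and passed DESeq2's test, with adjusted p-values of 0.0043 for Ccdc85a to 0.031 for Jam2 and Col27a1. Ccdc85a, like Herc6, was under 1 FPKM in every Cilengitide library and passed the filter only through SB273005.

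On the lower side, Fbxo32 (atrogin-1, a muscle ubiquitin ligase that FOXO factors induce) was at 8.51, 14.2 and 16.9 FPKM with Cilengitide and at 5.74, 5.40, 7.01 and 6.76 with SB273005. Its log2 difference was -1.07 ± 0.21 (adjusted p = 0.488 by edgeR and 0.0048 by DESeq2), beside 12.0 ± 2.64 FPKM in BAPN (SD, n = 4) and 16.4 ± 2.05 in PBS (SD, n = 3). The SB273005 libraries lay within a narrow range, and replicate 4 alone gave -0.95. Eef2k, the kinase that slows translation by way of elongation factor 2, was at 13.5, 16.8 and 17.2 FPKM against 10.3, 8.57, 12.5 and 8.18, a difference of -0.67 ± 0.15. Cilp2, a cartilage matrix protein, was at 5.15, 3.12 and 2.51 FPKM against 1.38, 2.32, 1.63 and 1.55, a difference of -1.03 ± 0.24, and BAPN alone was at 1.66 ± 0.246 FPKM (SD, n = 4), on the side of SB273005.

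Folr1 (folate receptor) was at 3.13, 2.98 and 3.45 FPKM with Cilengitide and at 2.04, 1.89, 1.71 and 2.32 with SB273005, a log2 difference of -0.65 ± 0.15. Ndrg1, a hypoxia-induced gene, was at 32.5, 26.4 and 29.2 FPKM against 22.9, 19.6, 23.1 and 24.5, a difference of -0.37 ± 0.09, beside 24.4 ± 1.06 FPKM in BAPN (SD, n = 4). Inka2, an inhibitor of the kinase PAK4, had -0.70 ± 0.17, Avpi1 -0.64 ± 0.15, Klhl21 -0.52 ± 0.13, Rom1 -0.48 ± 0.11 and Ccdc32 -0.47 ± 0.11. For Klhl21, Inka2 and Ccdc32, DESeq2 did not call the difference, while it called that of Folr1, Ndrg1, Avpi1, Eef2k, Cilp2 and Rom1.

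Fibroblast genes had 10 of 15 above 0 and a median of 0.01, lipid-handling Trem2-type macrophage genes 9 of 16 and 0.02, complement genes 9 of 16 and 0.05, and cell cycle genes 13 of 21 and 0.05. Genes of the ER stress response had 16 of 23 above 0, a median of 0.17 and 3 higher at an unadjusted p under 0.05, beside 5.9% of all genes. Hypoxia and glycolysis genes had 18 of 20 below 0, a median of -0.19 and 1 lower, beside 3.48%. Skeletal muscle genes had a median of -0.74, with -2.29, 0.14, -2.10 and 0.08 in SB273005 replicates 1 to 4, and erythroid genes 0.99, with 1.61, -0.32, -1.43 and 2.44.

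**Figure D4:**
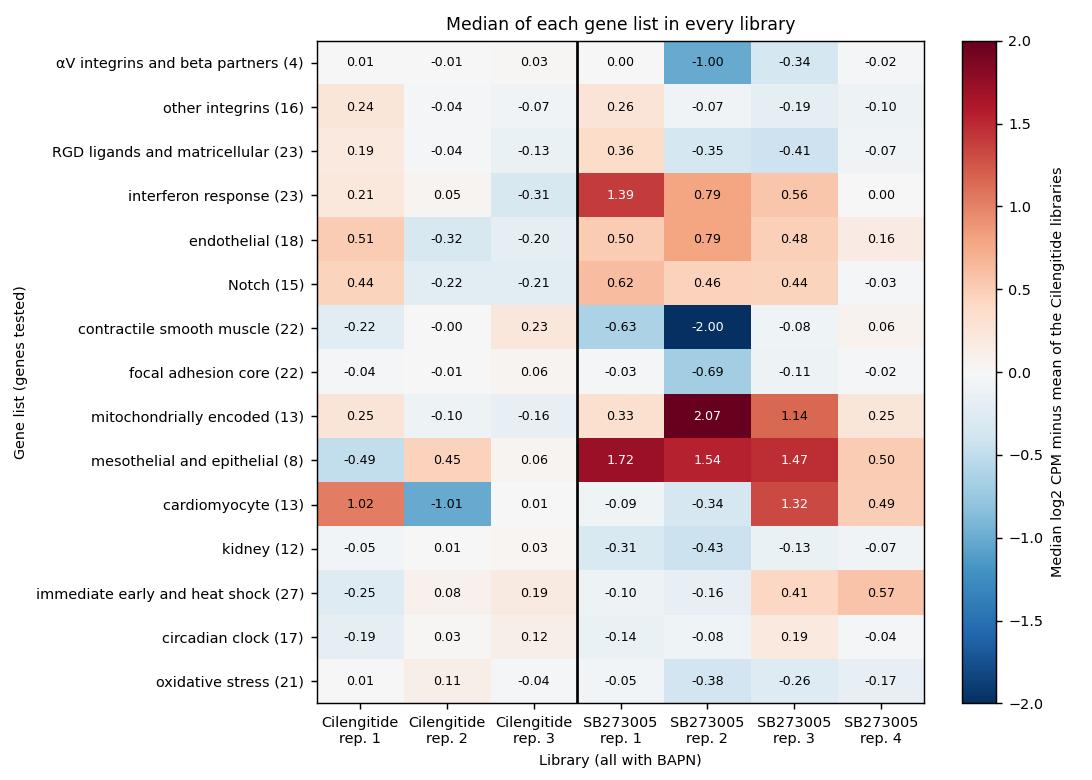
Median log2 CPM of 15 gene lists (rows, with the number of genes tested) in each of the 7 libraries (columns), minus the mean of the Cilengitide libraries; red is higher and blue lower. SB273005 replicate 2 has the extreme values for contractile (-2.0) and mitochondrially encoded genes (2.07), and replicate 4 lies close to the Cilengitide libraries for interferon response genes (0.00).

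Leaving out single libraries changed the size of the list medians more than their direction. Over the 7 ways of leaving out 1 library, the median of the interferon response list ran from 0.47 to 1.09, the endothelial from 0.27 to 0.72, the mesothelial from 1.11 to 1.51, the mitochondrially encoded from 0.62 to 1.35, and the contractile from -0.76 to -0.20. In SB273005 replicate 4 alone the interferon response and contractile medians were close to 0, at -0.04 and 0.04.

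**Figure D5:**
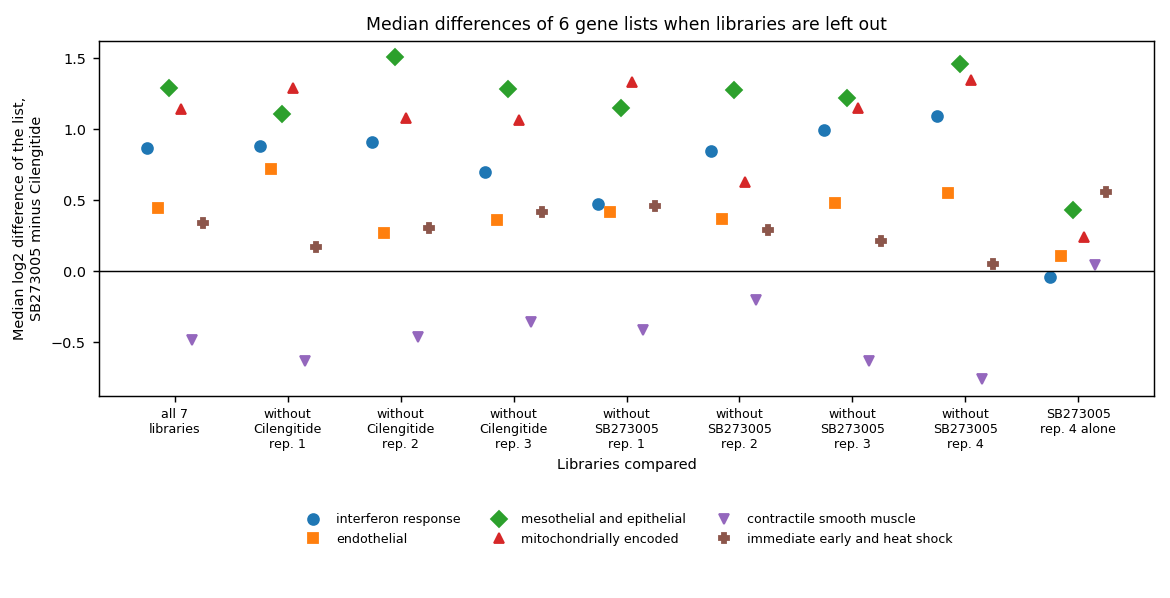
Median log2 difference, SB273005 minus Cilengitide (y axis), of 6 gene lists with all 7 libraries, with each library left out, and for SB273005 replicate 4 alone (x axis). The medians keep their sign with any library left out, while in SB273005 replicate 4 alone those of the interferon response (-0.04) and contractile genes (0.04) lie near 0.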

How the data were processed

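The deposited gene table gives, per gene and library, the authors' estimated counts (expected counts, rounded here to whole numbers) and the authors' FPKM; per the submitters' processing notes, the build was mm10 and the tools were HISAT2 2.2.1 and StringTie 2.1.6. For strand and annotation: not given in the sources used here. Genes were kept where at least 3 of the 7 libraries reached 1 FPKM, and tested with edgeR 4.0.16 (R 4.3.3; TMM scaling, 1 quasi-likelihood fit over all 14 libraries, Benjamini-Hochberg adjustment over 12686 genes, threshold 0.05). Errors are SE from the fit unless marked SD, and intervals are 95%; a floor of 3 counts covers counting error only. DESeq2 1.42.0 and limma 3.58.1 on log2(FPKM + 1) and log2(FPKM + 0.1) were alternatives. The fit was also run on simulated counts with 200 changed genes and 1 spread for all groups. At an adjusted p under 0.05 it recovered 14.9% of 1.5-fold, 53.7% of 2-fold and 100% of 4-fold changes, with 3 false calls.

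Library sums, replicate pairs and sets of libraries were checked first. The 9 pairs of inhibitor replicates had correlations of 0.924 to 0.983 and differed beyond sampling noise. Deviations from the group mean had r = 0.179 to 0.322 between libraries with the same replicate number in the 2 inhibitor groups. For other numbers r was -0.20 to -0.05. Such deviations cancel out within a group, so the 2 ranges are tied to each other and cannot show that samples were paired. The labels do not say what a number marks. The main fit pairs no samples, and the replicate number is a block only in an alternative.

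Genes were named by rule: the αV subunit and its partners, ligands and matrix genes listed by name; in each direction the 10 genes with the smallest p whose groups do not overlap, leaving out predicted gene models and pseudogenes; and up to 4 members of each described list with the smallest p. The members and the 44 lists (827 genes) were chosen with earlier results of these data known, and lists are described by counts and medians with no test. Overlap was judged on TMM-scaled log2 CPM, so printed FPKM can differ. The values of 1 gene of the interferon response list are in its counts and medians and are not reported here.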

Additional observations from a re-analysis of the deposited data

Results flagged for a closer look

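Of the 87 named genes tested by library, 2 had an SB273005 library that stood apart from the other 3 of its group, by Dixon's test at the 95% level. Chance flags about 1 in 20 groups. Zfpm2 was at 2.9274 FPKM in SB273005 replicate 1, against 2.3022 to 2.3979 in the other 3 libraries, with a gap of 0.847 of the range. Ryr2, the calcium release channel of heart muscle and also of smooth muscle, was at 0.2618 FPKM in SB273005 replicate 2, against 0.942 to 1.0396, with a gap of 0.875. Replicate 2 is also the library with 17.9% mitochondrially encoded counts, and the part of that share in the value of Ryr2 was not tested. Without these libraries the log2 differences were 0.62 for Zfpm2 and -0.60 for Ryr2.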

How the results depend on the processing

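The count of genes past the threshold, 0 in the fit reported, was 0 in 16 alternatives, among them the replicate block, which gave 0 genes and 1326 at an unadjusted p, robust estimation, another scaling, limma and other filters. It was 30 by DESeq2, 12 once a term for the library set was fitted, and 9, all lower, with SB273005 replicates 1 and 3 only, an alternative chosen after seeing the data. Leaving out 1 library gave 0 to 15 genes, with 1 without Cilengitide replicate 2 and 15 without SB273005 replicate 4. Those 15 include H2-Ea, Umod and Myh7, whose levels part the libraries in a way that crosses the treatments. H2-Ea and Myh7 passed the filter in that fit only through the group where each is high. At an unadjusted p under 0.05 edgeR's count was 1190, against 1818 of 29575 genes with no filter, 1653 with limma on log2(TPM + 1) and 416 under the library set term; the cause was not tested. The groups did not overlap for 1083 to 2265 genes with 1 library left out, where fewer samples make non-overlap easier, against 802.

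Signs turned for genes close to 0. Under the library set term, values were 0.019 for Myh11, 0.38 for Tgfb2, 0.22 for Itgav, 0.066 for Eln, 0.18 for Itga5, -0.048 for Jag2, -0.37 for Dll4, -0.41 for Thbs4 and -0.028 for Miox. Lox was at -0.067 and -0.068 on the log2(FPKM + 1) and log2(FPKM + 0.1) scales, at -0.31 on the TPM scale and at -0.061 with SB273005 replicates 1 and 3 only, where Fn1 was at 0.062, Tgfb1 at 0.030 and Itgav at 0.016. Itgav was at 0.0014 under the stricter filter of 3 FPKM. With 1 library left out, the ranges were -1.02 to 0.18 for Spp1, -0.80 to 0.14 for Fn1, -0.50 to 0.012 for Tgfb2, -0.29 to 0.094 for Tgfb1, -0.11 to 0.079 for Itgav, -0.16 to 0.26 for Lox and -0.24 to 0.18 for Eln. Of the list medians over all alternatives, 879 kept within the spread of the libraries and 43 moved beyond it. The block changed no other call. With 3 and 4 libraries a group, the 95% interval reached past 2-fold for 2430 genes.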
